A study of Mus musculus with 19 samples.

Results

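The 2 iEpt only grafts of the series, the libraries FS022 and FS023, were compared with the 6 samples of mouse embryonic fibroblasts (MEFs), the libraries FS015 to FS020, so that 8 of the 19 samples enter. iEpt are induced epithelial cells, made by giving MEFs the human reprogramming factors OCT4, SOX2, KLF4 and c-MYC in retroviruses and then growing them in basal epithelial medium. The MEFs were C57BL/6 cells from limbs of E13.5 embryos, male and female littermates pooled, and heterozygous for the lacZ insertion allele given in their label. They had been sorted to leave out cells with the blood, endothelial and epithelial surface proteins CD45, Ter119, CD31, Mac-1 and EpCAM, and were grown in serum. For a graft, iEpt cells were mixed with rat embryonic urogenital mesenchyme and kept overnight in medium with the androgen DHT. The mix was then placed for 6 weeks under the kidney capsule of a male nude mouse that carried a testosterone pellet. The cells had none of the further prostate factors that the iEpt+NAF grafts received. No label tells the iEpt only grafts from the 5 iEpt+NAF grafts, and FS022 and FS023 were placed here because the supplement of the study names the other 5. RNA of a graft can come from iEpt progeny, from the rat mesenchyme and from the host, including its kidney and blood, and the source of the reads was not tested. A nude host lacks a thymus and keeps other blood cells. In such bulk samples fewer cells of a type and less RNA per cell cannot be told apart.

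Fibroblasts are mesenchymal cells that secrete collagens and other matrix proteins, while epithelial cells join into sheets through E-cadherin and the adhesion protein EpCAM and hold keratin filaments. Forced expression of the reprogramming factors can loosen the identity of a cell, and primed conversion uses them for a short time with a medium that favours another cell type. Urogenital mesenchyme is the embryonic tissue around the urogenital sinus. It signals to the epithelium next to it and can direct epithelia towards prostate, and it forms smooth muscle itself.

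The values are log2 normalized read counts per gene, on a scale aligned over all 19 samples, and are not divided by gene length, so that levels are compared between samples and not between genes. An estimated 6629665 reads lay in genes in FS022 and 9662059 in FS023, against 20418163 to 26152345 in the MEF samples. A level of 3 reads stood at 3.22 in FS022, 2.83 in FS023 and 1.85 to 2.06 in MEFs. Values under these levels, negative ones included, are at most 3 reads and carry no order. For differences and list medians they were set to the level of 3 reads. The MEFs and the grafts were deposited in 2 tables normalized separately, so table and group cannot be told apart, and no test was made and no p-value is given. Between FS022 and FS023, which share a table, 1 library was set against 1, so that their differences have no replicate check. A 95% counting interval stands beside such a fold where both grafts had reads, and covers counting error only.

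The MEF samples were not 6 equal replicates. They fell into 3 pairs, FS015 with FS020, FS016 with FS019 and FS017 with FS018. The median squared count difference within these pairs was 2.0 to 2.5 times sampling noise, against 19.3 to 28.1 times in the other pairings. It was taken over well-covered genes, without those 3 log2 units or more higher in the prostate samples than in the pair. It thus leaves out the prostate transcripts described next. FS015 to FS018 also carried secretory transcripts of the mouse prostate. Pbsn, the prostate secretory protein probasin, was at 8.56, 6.58, 7.08 and 6.70 in these 4 samples and at -0.01 and 0.36 in FS019 and FS020. FS015 and FS020 carried macrophage transcripts, with a median over 15 macrophage genes of 9.82 and 9.73, against 2.31 to 3.58 in the other 4 MEF samples. All 6 were at the level of 3 reads or near it for Epcam, a marker of the sort, with values of 1.05 to 4.07.

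Both grafts differed from MEFs in a large part of the genes. Each graft was at least 1 log2 unit above every MEF sample for 3201 of 15756 genes (20.3%), and at least 1 log2 unit below every MEF sample for 860 (5.46%). These genes are called higher and lower here. The level of 3 reads is highest in FS022, and 215 of the 3201 genes had at most 3 reads there. Without them 2986 genes remained (19%), and counts of higher genes in the gene lists use this stricter set. The median over all genes was 0.42 higher in the grafts than in MEFs, at 0.36 in FS022 and 0.48 in FS023, and the differences below are to be read against it. Higher genes were 78.8% of all called genes on this scale and 75.2% with the values as deposited, but 35.4%, or 1205 against 2198, when the 8 samples were quantile-normalized. Each graft taken alone, FS022 had 3575 higher and 1624 lower genes and FS023 4735 and 1545, and both share the MEF samples. Without FS015 to FS018 the counts for both grafts were 3963 and 1033, and fewer samples to clear can only add genes. The last genes inside and outside the limit of 1 log2 unit were A930017M01Rik at 1.0 and 3110057O12Rik at 0.9998 among higher genes, and Mtrr at 1.001 and Prrc1 at 0.9997 among lower ones.

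In both grafts the matrix genes of fibroblasts stood far below MEFs. Of 24 fibroblast matrix genes 17 were lower in both grafts and none was higher, with list medians of 10.86 in FS022, 10.13 in FS023 and 14.35 to 14.96 in MEFs. Col1a1, a chain of collagen I, was at 13.94 in FS022 and 11.63 in FS023, against 17.68 to 18.37 in MEFs (median 17.84). Fn1, which encodes fibronectin, was at 13.89 in FS022 and 12.18 in FS023, against 17.87 to 18.88 in MEFs (median 18.27). Lox, the enzyme that cross-links collagen (chr18:52675723-52689521, minus strand in mm9), was at 9.32 in FS022 and 8.16 in FS023, against 15.57 to 17.14 in MEFs (median 15.88). All 3 were below every MEF sample in both grafts, with no overlap. Col3a1, a chain of collagen III, did not meet the limit, at 15.24 in FS022 and 12.52 in FS023, against 15.19 to 16.75 in MEFs (median 16.04), and FS022 lay inside the MEF range. Thy1, a surface protein of fibroblasts that neurons also carry, split the grafts at 7.31 in FS022 and 12.61 in FS023, against 11.91 to 12.60 in MEFs (median 12.52).

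The 12 genes furthest below MEFs were mostly genes of the matrix and its regulation. Il1rl1, the receptor for interleukin 33, was furthest (chr1:40486415-40522260, plus strand), at 6.04 in FS022 and 4.72 in FS023, against 12.24 to 14.67 in MEFs (median 14.34). Hmga2, a chromatin protein of embryonic mesenchyme (chr10:119798331-119913525, minus strand), was at 5.04 in FS022 and 5.75 in FS023, against 13.01 to 14.02 in MEFs (median 13.67), which is 12 estimated reads in FS022 and 29 in FS023. Both grafts lay far under every MEF sample for Il1rl1 and Hmga2. Thbs1, the matrix protein thrombospondin, was at 12.45 and 10.26 in the grafts and 17.75, 18.74 and 18.81 at the lowest, median and highest MEF sample. Itga11, a collagen-binding integrin, was at 4.92 and 4.94 in the grafts and 11.36, 12.25 and 12.40 at the lowest, median and highest MEF sample. Wisp1, a secreted matricellular protein, was at 7.04 and 6.82 in the grafts and 12.44, 12.60 and 13.63 at the lowest, median and highest MEF sample. Fbln2 and Tnn, which encode the matrix proteins fibulin and tenascin, were lower too, and so was Dnm3os, a non-coding RNA whose reads cannot be told from those of its antisense partner because the library kit does not mark strand. Col2a1 and Col10a1, the collagens of cartilage, were also among the 12. Col2a1 was at -0.33 in FS022 and 7.16 in FS023, against 10.59 to 13.68 in MEFs (median 12.17), with 0 estimated reads in FS022 and 78 in FS023, and Col10a1 at 4.31 in FS022 and 6.03 in FS023, against 10.56 to 12.34 in MEFs (median 11.94).

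Transcription factors of the mesenchymal state were lower in part. Of 8 factors tied to the epithelial-mesenchymal transition 5 were lower in both grafts and none was higher. Snai2 was at 8.73 in FS022 and 5.82 in FS023, against 10.23 to 10.41 in MEFs (median 10.33). Prrx1, a homeobox factor of limb mesenchyme, was at 10.97 in FS022 and 9.58 in FS023, against 13.06 to 13.82 in MEFs (median 13.25). Both were below all MEF samples in both grafts. Zeb1, a repressor of E-cadherin, was at 11.09 in FS022 and 10.85 in FS023, against 11.09 to 11.62 in MEFs (median 11.33), so that it stood at or just under the lowest MEF sample in both grafts and short of the limit. Of 17 regulators of limb mesenchyme 5 were lower in both grafts and none was higher in both. Among the lower ones were Tbx5, the factor of the forelimb, at 6.32 in FS022 and -1.12 in FS023, against 7.80 to 8.42 in MEFs (median 8.14), and Tbx15 at 7.41 in FS022 and 6.84 in FS023, against 11.09 to 11.70 in MEFs (median 11.30). The list split the grafts. By the same limit 4 of the 17 were above every MEF sample in FS022 and 7 below, against 0 and 13 in FS023. FS022 exceeded FS023 by 3 log2 units or more for 9 of them. Hoxa11, Hoxa13 and Hoxd11 to Hoxd13 are also in the list of Hox genes.

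Genes of the cell division cycle stood below MEFs in both grafts. Of 22 such genes 21 were lower, all but Pcna, and none differed between the grafts by 3 log2 units. Mki67, the proliferation marker, was at 9.73 in FS022 and 9.89 in FS023, against 12.46 to 13.22 in MEFs (median 12.73). Top2a, the topoisomerase of dividing cells, was at 9.36 in FS022 and 10.18 in FS023, against 12.45 to 13.18 in MEFs (median 12.71). Ccnb1, a mitotic cyclin, was at 5.63 in FS022 and 7.11 in FS023, against 8.78 to 9.68 in MEFs (median 9.20). The MEFs were cultures and the grafts tissue of 6 weeks, and the part of this in the difference was not tested. Of 17 imprinted genes 6 were lower in both grafts. The fetal growth factor Igf2 was at 9.09 in FS022 and 10.98 in FS023, against 13.52 to 16.36 in MEFs (median 14.64), and H19, the non-coding RNA beside it, was at 10.73 in FS022 and 11.35 in FS023, against 12.84 to 15.90 in MEFs (median 14.15).

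Epithelial genes stood above MEFs in both grafts. Of 18 genes of epithelial adhesion and its regulators 16 were higher and none was lower, with list medians of 10.74 in FS022, 8.77 in FS023 and 1.85 to 3.55 in MEFs. Epcam (chr17:88035319-88050446, plus strand) was at 12.48 in FS022 and 10.63 in FS023, against 1.05 to 4.07 in MEFs (median 2.20). Cdh1, which encodes E-cadherin, was at 12.69 in FS022 and 11.19 in FS023, against 2.33 to 4.59 in MEFs (median 3.27). Ehf, an epithelial transcription factor, was at 13.09 in FS022 and 10.37 in FS023, against 0.74 to 5.08 in MEFs (median 3.23). Both grafts lay above every MEF sample for each of them, FS022 above FS023. Of the simple epithelial keratins, 5 of 6 were higher, with Krt8 at 12.86 in FS022 and 11.01 in FS023, against 2.21 to 5.72 in MEFs (median 3.64) and Krt18 at 13.43 in FS022 and 11.03 in FS023, against 4.21 to 8.29 in MEFs (median 5.46). Krt20 did not share this pattern and stood at 3.73 in FS022 and 7.83 in FS023, against 4.69 to 6.19 in MEFs (median 5.96).

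Both grafts also held genes of basal and stratified epithelium. Of 18 basal genes 12 were higher in both. Krt5 (chr15:101537501-101543322, minus strand), a keratin of basal cells, was at 12.60 in FS022 and 10.21 in FS023, against -1.49 to 3.42 in MEFs (median 1.25), and its partner Krt14 was at 12.07 in FS022 and 9.38 in FS023, against 1.65 to 2.67 in MEFs (median 2.14). Trp63, a transcription factor of basal cells, was at 11.21 in FS022 and 7.78 in FS023, against 2.55 to 7.23 in MEFs (median 3.51), so that FS022 lay well above the MEF range and FS023 just above it, short of the limit. Krt4, a keratin of stratified mucosa, was among the 12 genes furthest above MEFs, at 11.16 in FS022 and 13.01 in FS023, against -1.61 to 1.62 in MEFs (median 0.72).

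**Figure D1:**
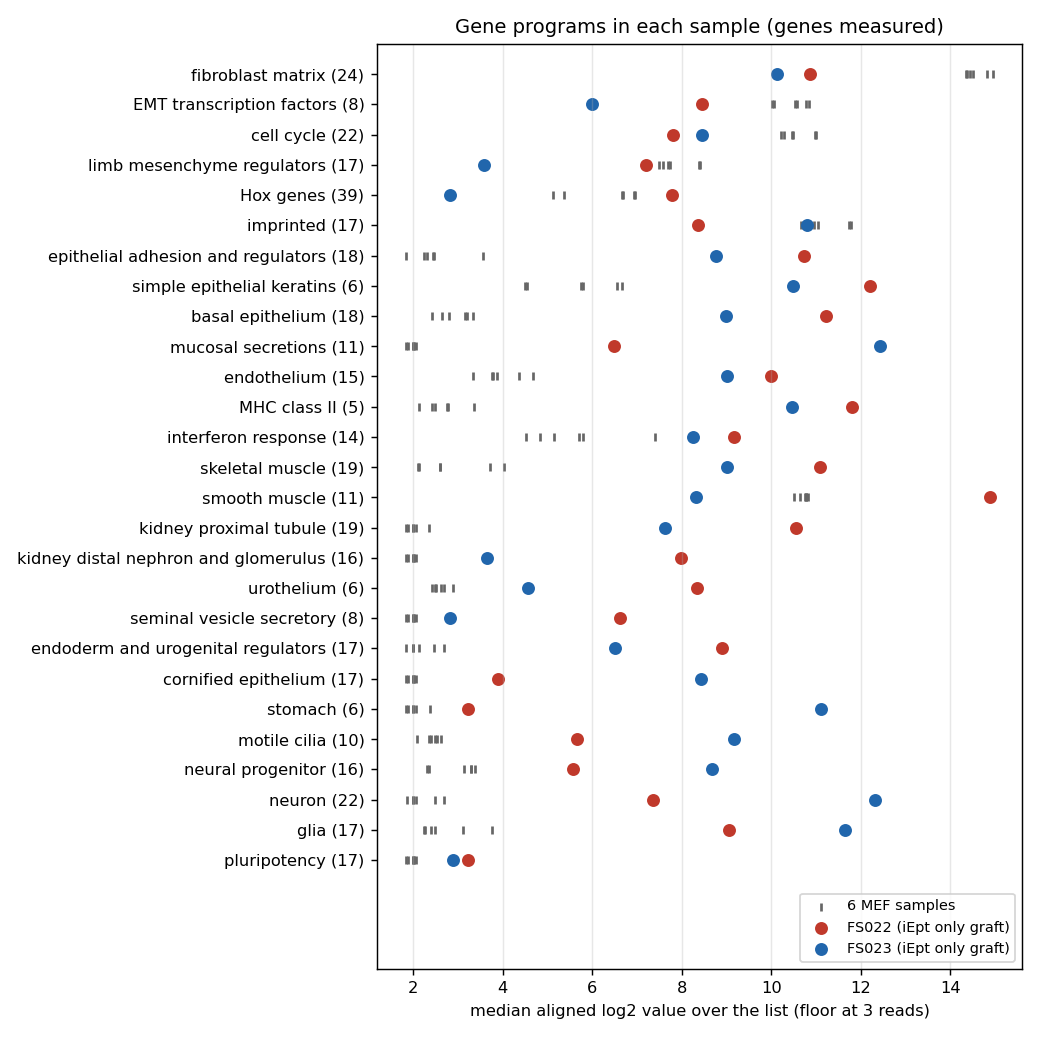
Median aligned log2 value of 27 of the gene lists in each sample. The horizontal axis is the median over the list, with values under 3 reads set to that level. Grey bars are the 6 MEF samples, red points FS022 and blue points FS023, and the number of genes measured stands beside each list. Both grafts lie left of all MEF bars for fibroblast matrix and cell cycle and right of them for epithelial adhesion, while smooth muscle, Hox genes, neuron and stomach separate the grafts.

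Of the 12 genes furthest above MEFs, several encode proteins that epithelia secrete. Ltf, which encodes the iron-binding secreted protein lactoferrin (chr9:110921796-110945270, plus strand), led at 14.87 in FS022 and 14.14 in FS023, against -1.12 to 3.17 in MEFs (median 1.32), with 11737 estimated reads in FS022 and 9915 in FS023 and at most 9 in any MEF sample. Both grafts were high and close to each other for it, and no MEF sample came near. Cyp2f2, a cytochrome P450 of airway club cells, was at 13.65 in FS022 and 12.60 in FS023, against -0.34 to 3.32 in MEFs (median 2.11). Clca3, a secreted protein of goblet cells, was at 11.66 in FS022 and 11.30 in FS023, against -0.04 to 1.75 in MEFs (median 0.97). Reg3g, an antimicrobial lectin of the gut, was at 9.97 in FS022 and 14.86 in FS023, against -2.42 to 2.67 in MEFs (median 1.31). Expi, a secreted protein of the whey acidic protein family, was at 14.64 in FS022 and 8.78 in FS023, against -0.38 to 2.79 in MEFs (median 0.91). The last pair was above every MEF sample in both grafts but differed between the grafts in opposite directions. Pcp4, a small calmodulin-binding protein, was at 14.94 in FS022 and 10.65 in FS023, against -1.21 to 4.45 in MEFs (median 1.83). Snap25 and Gfap, markers of neurons and astrocytes, and Kap, a kidney gene, also belonged to the 12 and are described with their groups.

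Vessel genes and some immune genes were shared. Of 15 endothelial genes 10 were higher in both grafts, with Pecam1, the CD31 protein by which cells were removed from the MEFs, at 11.45 in FS022 and 9.28 in FS023, against -2.51 to 4.68 in MEFs (median 2.02). Cdh5, the cadherin of endothelium, was at 10.44 in FS022 and 9.02 in FS023, against 0.73 to 3.72 in MEFs (median 3.28). All 5 MHC class II genes were higher, among them Cd74 at 12.94 in FS022 and 12.37 in FS023, against 2.13 to 4.64 in MEFs (median 3.08) and H2-Ab1 at 11.11 in FS022 and 10.47 in FS023, against 2.48 to 2.92 in MEFs (median 2.77). Of 14 interferon response genes 9 were higher, with Oasl2 at 11.15 in FS022 and 10 in FS023, against 3.88 to 7.51 in MEFs (median 5.66). The macrophage list had medians of 9.96 in FS022, 10.01 in FS023 and 2.31 to 9.82 in MEFs, with FS015 and FS020 close to the grafts, and 3 of 15 genes met the limit. Lyz2, the macrophage lysozyme, was at 12.81 in FS022 and 13.38 in FS023, against 5.24 to 12.13 in MEFs (median 5.82), and C1qa, a complement component that macrophages make, was at 10.87 in FS022 and 11.61 in FS023, against 1.62 to 10.04 in MEFs (median 3.44). The T cell gene Cd3e was near the level of 3 reads, at -0.37 in FS022 and 3.88 in FS023, against -2.0 to 1.24 in MEFs (median -0.49), and 3 of 18 lymphoid genes were higher. The macrophage count was near the share over all genes, of which 19% were higher. Of the 18 lymphoid genes only 3 reached the linear mean needed for a call, and these are the 3 that were higher. The lymphoid count therefore cannot be set against that share.

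Red cell transcripts were present in both grafts. Beta-s, a beta chain of hemoglobin, was at 13.64 in FS022 and 9.48 in FS023, against -1.60 to 2.43 in MEFs (median 1.48), with 4998 estimated reads in FS022 and 393 in FS023. Alas2, the heme synthesis enzyme of erythroid cells, was at 11.04 in FS022 and 7.0 in FS023, against 2.56 to 4.13 in MEFs (median 3.27). Both were high in the grafts, higher in FS022, and near the level of 3 reads in MEFs. The alpha globin genes Hba-a1 and Hba-a2 had 0 estimated reads in both grafts. Of 9 erythroid genes only 1 reached the linear mean needed for a call, and it was higher, so the list as a whole cannot be judged. Near-identical globin genes share reads, and how these were counted was not tested.

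Skeletal muscle was a further group above MEFs in both grafts. Of 19 genes 17 were higher and none was lower, with list medians of 11.10 in FS022, 9.01 in FS023 and 2.11 to 4.02 in MEFs. Acta1, skeletal actin (chr8:126415669-126418651, minus strand), was at 16.19 in FS022 and 12 in FS023, against 8.12 to 10.35 in MEFs (median 9.47), and it was the fifth most abundant gene by reads in FS022. Ckm, the creatine kinase of muscle, was at 11.27 in FS022 and 9.92 in FS023, against -2.77 to 2.08 in MEFs (median 0.83). Tnnc2, troponin of fast fibres, was at 12.71 in FS022 and 9.86 in FS023, against 2.62 to 3.77 in MEFs (median 3.28). Myh2, a fast myosin, was at 11.63 in FS022 and 7.46 in FS023, against 1.61 to 4.21 in MEFs (median 3.71). The grafts did not overlap with MEFs for any of them, and FS022 was the higher graft. Of 12 cardiac genes 5 were higher and 1 was lower, with Myh6, the alpha myosin of heart, at 10.29 in FS022 and 5.19 in FS023, against -1.97 to 3.46 in MEFs (median 0.91), and Myl2, its regulatory light chain, at 8.13 in FS022 and 4.04 in FS023, against -1.11 to 2.39 in MEFs (median 0.35).

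Muscle genes are known to carry the CArG box, the site of serum response factor, in their promoters, so the stretch around it is shown for actins and a myosin of these lists. A search for the CArG box by name on both strands, in the 250 bases before to 50 after each start site in RefSeq (GRCm38.p6), found it in 488 of 27025 promoters (1.81%). It lay in 2 of 15 skeletal muscle promoters, in 2 of 12 cardiac ones and in none of 7 smooth muscle promoters with an entry. Most lists outside muscle had none. It also lay in 2 of 14 imprinted and 1 of 9 Wnt pathway promoters, so it was not particular to the muscle lists. The box is in capitals, and Acta1 (chr8:123894829-123894858, minus strand), Myh4 (chr11:67237698-67237727, plus strand) and Actc1 (chr2:114052903-114052932, minus strand) read:
Acta1: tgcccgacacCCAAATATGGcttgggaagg
Myh4: aaagagattgCCAAAAATGGttttgccaag
Actc1: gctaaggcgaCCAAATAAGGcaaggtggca

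The box starts 73, 104 and 47 bases before the start site in this order. Such a match is a description of these letters, and binding was not measured.

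Of the factors used for reprogramming, the mouse genes were measured, and the retroviral copies were human, in vectors with constitutive expression. The study found reads over the human SOX2, KLF4 and MYC coding regions in every iEpt+NAF graft, and over that of OCT4 in all but FS008. Whether reads of human copies were counted in the mouse genes here was not tested. Pou5f1, the mouse gene for OCT4, had 0 estimated reads in FS022 and 3 in FS023, and Nanog, a factor of the pluripotent state, had 0 estimated reads in FS022 and 3 in FS023. At this depth neither was detected above 3 reads. Sox2, which neural and basal epithelial cells also use, was at 10.08 in FS022 and 11.13 in FS023, against 3.12 to 4.89 in MEFs (median 3.94), above every MEF sample in both grafts. Klf4 was at 10.84 in FS022 and 9.13 in FS023, against 9.36 to 10.48 in MEFs (median 10.06), and Myc at 9.0 in FS022 and 8.42 in FS023, against 9.87 to 10.53 in MEFs (median 10.05). The grafts lay on either side of the MEF range for Klf4 and below it for Myc, by less than the limit in FS022. Foxa1, the pioneer factor of endodermal and prostate epithelium and not among the factors given to these grafts, was at 10.81 in FS022 and 9.77 in FS023, against 3.57 to 5.33 in MEFs (median 4.08). Of 17 pluripotency genes 1 was higher, Esrrb, at 6.71 in FS022 and 5.20 in FS023, against 0.65 to 2.07 in MEFs (median 1.58). Germ cell and trophoblast lists had 1 of 6 and 0 of 6 genes higher.

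Between each other the 2 grafts differed in many genes and in whole tissue programs. FS022 exceeded FS023 by at least 3 log2 units, which is 8-fold, for 495 of 16636 genes (2.98%), and FS023 exceeded FS022 by as much for 1476 (8.87%). The median over all genes was 0.18 lower in FS022. The last genes inside and outside this limit were Gja5 at 3.002 and Plb1 at 2.983 on the side of FS022, and Alb at 3.002 and Neto2 at 2.999 on that of FS023. With the grafts as a pair of quantile-normalized samples the counts were 734 and 1111. The most abundant genes by reads differed likewise. In FS022 Myh11 took 0.863% of the reads, Flna 0.754% and Tpm2 0.570%, and the latter pair, an actin cross-linker and a tropomyosin, were chosen after their values were seen. In FS023 Rn45s, the ribosomal RNA precursor, took 0.890%, Gfap 0.431% and Cpe, an enzyme of peptide hormone processing also chosen so, 0.329%.

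**Figure D2:**
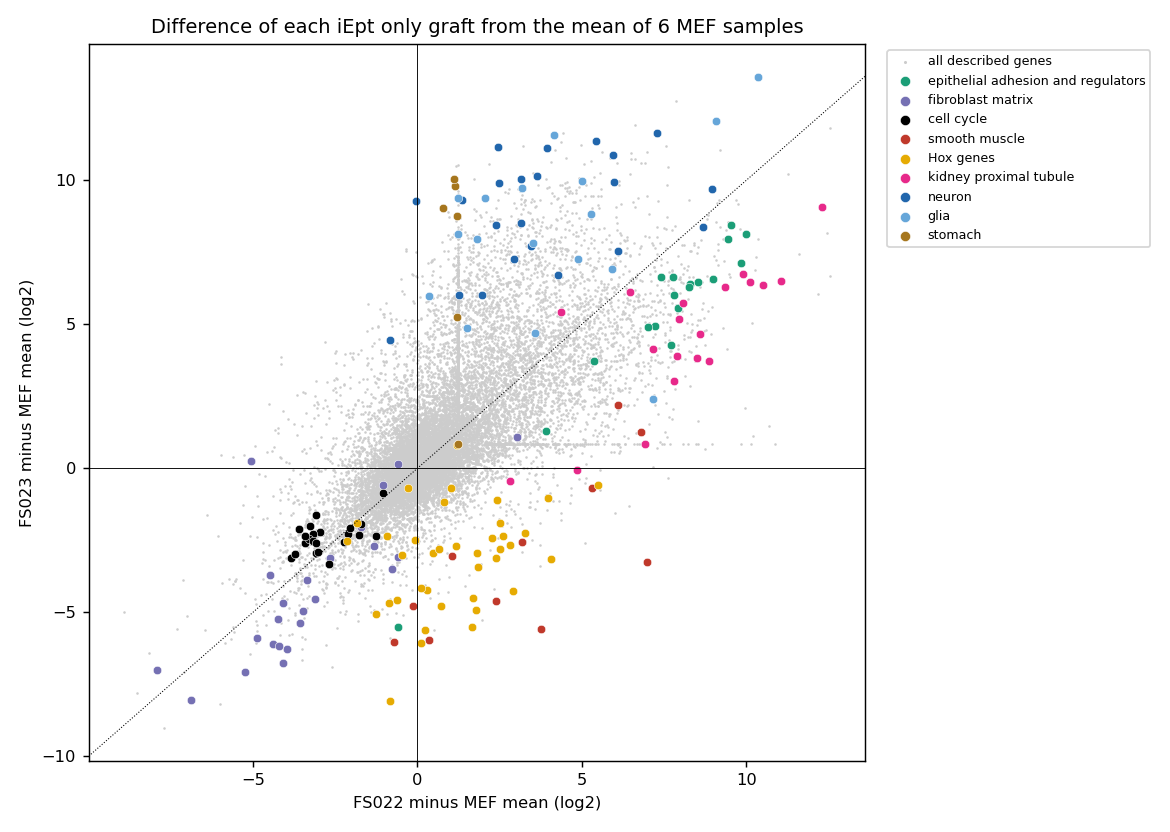
Difference of each graft from the mean of the 6 MEF samples for every gene described, FS022 on the horizontal and FS023 on the vertical axis, both in log2 units with values under 3 reads set to that level. Grey dots are all genes and coloured points members of 9 gene lists. The dotted diagonal marks equal differences. Most fibroblast matrix and all cell cycle genes lie in the lower left and most epithelial adhesion genes in the upper right. Most smooth muscle, Hox and proximal tubule genes lie under the diagonal and most neuron, glia and stomach genes above it.

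FS022 held the contractile genes of smooth muscle at a list median above FS023 and every MEF sample. All 11 smooth muscle genes exceeded FS023 by 3 log2 units or more, with list medians of 14.89 in FS022, 8.32 in FS023 and 10.50 to 10.82 in MEFs, and they took 2.27% of the reads in FS022 and 0.0281% in FS023. Myh11, smooth muscle myosin (chr16:14194620-14291501, minus strand), was at 17.15 in FS022 and 6.91 in FS023, against 9.59 to 10.78 in MEFs (median 9.99), with 57223 estimated reads in FS022 and 65 in FS023, a ratio of 1235-fold (95% counting interval 969 to 1601). Actg2, enteric actin, was at 15.42 in FS022 and 6.11 in FS023, against 11.20 to 12.49 in MEFs (median 11.33), a ratio of 654-fold (95% counting interval 474 to 930). Cnn1, which encodes calponin, was at 14.47 in FS022 and 7.46 in FS023, against 11.81 to 12.41 in MEFs (median 12.01). For all 3, FS022 stood above every MEF sample and FS023 below every one. Acta2, the smooth muscle actin that cultured fibroblasts also make, was at 15.18 in FS022 and 9.86 in FS023, against 15.49 to 16.32 in MEFs (median 15.82), and there both grafts were below MEFs. P2rx1, an ATP-gated channel of smooth muscle, was at 12.79 in FS022 and 3.57 in FS023, against 0.62 to 2.87 in MEFs (median 1.39). Both grafts were higher than MEFs for 1 of 11 genes, Synpo2, an actin-binding protein named here after its value was seen. Des, the filament desmin, was at 15.66 in FS022 and 10.12 in FS023, against 7.54 to 10.53 in MEFs (median 8.42), and FS023 lay inside the MEF range.

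Hox genes, which mark position along the body and the limb, also separated the grafts. Of 39 Hox genes 29 were higher in FS022 by 3 log2 units or more and none in FS023. In FS022 35 of 39 were above 3 reads, and 18 of these lay above the MEF range, 14 inside it and 3 below it. In FS023 15 of 39 were above 3 reads, and the highest stood at 4.58. Over the 23 genes of paralogue groups 1 to 8 the medians were 7.41 in FS022, 3.17 in FS023 and 6.54 in MEFs, and over the 16 genes of groups 9 to 13 they were 8.59, 2.83 and 7.35. Hoxd13, of the distal limb and the genital tubercle, was at 10.09 in FS022 and 0.41 in FS023, against 9.86 to 11.56 in MEFs (median 11.23), with 426 estimated reads in FS022 and 0 in FS023. Hoxa10 was at 11.24 in FS022 and 4.07 in FS023, against 9.06 to 10.13 in MEFs (median 9.58). Hoxb6 was at 10.05 in FS022 and -0.38 in FS023, against 3.91 to 7.16 in MEFs (median 6.72), and Hoxb13 (chr11:96055630-96058761, plus strand), a factor of the prostate and hindgut, at 8.90 in FS022 and 0.75 in FS023, against 1.26 to 4.65 in MEFs (median 3.46). The last pair was above every MEF sample in FS022 and under 3 reads in FS023. Hoxa13 had 399 estimated reads in FS022 and 0 in FS023, at least 187-fold more in FS022 against a level of 3 reads.

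**Figure D3:**
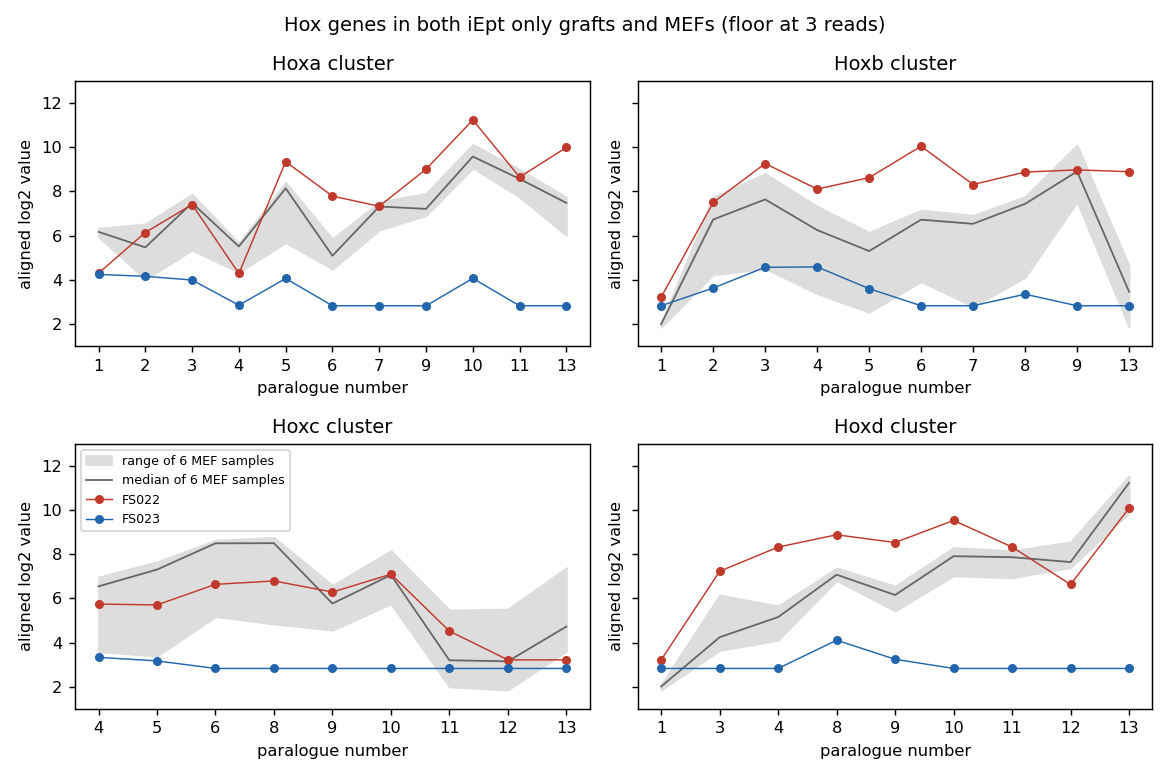
Aligned log2 values of 39 Hox genes by cluster, with the paralogue number on the horizontal axis and values under 3 reads set to that level. The grey band and line are the range and median of the 6 MEF samples, red is FS022 and blue FS023. Of the 35 genes above 3 reads in FS022, 18 lie above the MEF band, 14 inside it and 3 below it, and FS023 stays at or under 4.58.

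Transcripts of male accessory glands were found in FS022. Of 8 seminal vesicle genes 4 were higher in FS022 than in FS023 and none was the other way. Svs4, a seminal vesicle secretory protein (chr2:164101688-164104195, minus strand), was at 12.13 in FS022 and -0.17 in FS023, against -2.47 to 2.13 in MEFs (median -1.15), with 1759 estimated reads in FS022 and 0 in FS023, at least 823-fold more in FS022 against a level of 3 reads. Svs2, the main clotting protein of the copulatory plug, was at 11.82 in FS022 and -1.99 in FS023, against -1.54 to 0.09 in MEFs (median -0.20), and Pate4, a small protein of the seminal vesicle, at 12.86 in FS022 and 2.36 in FS023, against -0.23 to 1.94 in MEFs (median 1.15). Of the 8 samples compared, these were high in FS022 alone, and FS023 and all 6 MEF samples were under or about 3 reads. They were not particular to FS022 in the series. The iEpt+NAF grafts ranged from 1.48 to 12.20 for Svs4, 2.06 to 12.66 for Svs2 and 2.03 to 12.41 for Pate4. Svs1 had 1 estimated read in FS022 and 0 in FS023. Cuzd1, Pip and Csn3, genes of secretory epithelia such as pancreas, lacrimal gland and breast, were at 12.23, 10.92 and 10.88 in FS022 and at 3.15, 2.80 and 1.89 in FS023. The other milk protein genes of the mammary list that follow the rule, Csn1s1, Csn2 and Lalba, were under 3 reads in both grafts.

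Prostate secretory genes did not meet the limit in both grafts, where the MEF samples with prostate transcripts set the bar. Of 6 secretory genes none was higher in both grafts than in every MEF sample, and 2 were higher in FS022 than in FS023. Spink3 was at 9.04 in FS022 and 6.25 in FS023. It was at -0.43 and -0.05 in FS019 and FS020, and at 6.58 to 8.29 in the other 4 MEF samples. Of the 6 genes, only Spink3 stood above FS019 and FS020 in both grafts at more than 3 reads. Tgm4, the prostate transglutaminase, was at 12.80 in FS022 and 6.86 in FS023, against 7.27 to 9.82 in MEFs (median 8.59), and the median of the 6 prostate samples of the series was 18.57. Defb50, a defensin, was at 7.07 in FS022 and -0.53 in FS023, against 0.38 to 6.54 in MEFs (median 4.87). Pbsn had 1 estimated read in FS022 and 1 in FS023 and Sbp, the spermine-binding protein, 0 in both, below the 4 MEF samples that carried these transcripts. Of 7 luminal regulators and membrane genes 4 were higher in both grafts. Tmprss2, a membrane protease, was at 11.98 in FS022 and 9.86 in FS023, against 1.18 to 3.98 in MEFs (median 2.41), and Trpv6, a calcium channel, at 8.69 in FS022 and 4.71 in FS023, against 1.49 to 3.85 in MEFs (median 2.94). Of the urothelium, Upk1a, a uroplakin (chr7:31388111-31397753, minus strand), was at 10.90 in FS022 and 2.94 in FS023, against 2.95 to 3.53 in MEFs (median 3.39), and Upk3a was at 9.74 in FS022 and 6.11 in FS023, against -1.22 to 2.26 in MEFs (median 0.11). Both were highest in FS022 of the 8 samples compared. Upk1a was higher still in the 6 prostate samples, at 11.36 to 12.73, so it did not tell bladder lining from prostate. Upk1b was at 9.14 in FS022 and 9.26 in FS023, against 2.97 to 8.52 in MEFs (median 7.72). Psca, a surface protein of urothelium and stomach, was the other way at 6.96 in FS022 and 10.24 in FS023, against -1.62 to 1.96 in MEFs (median -0.18).

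Kidney genes were above MEFs in both grafts and higher in FS022. Of 19 proximal tubule genes 16 were higher in both grafts than in MEFs and 15 were higher in FS022 than in FS023, with list medians of 10.56 in FS022, 7.64 in FS023 and 1.85 to 2.36 in MEFs. Kap, an androgen-regulated kidney protein (chr6:133799873-133803685, minus strand), was at 14.54 in FS022 and 11.30 in FS023, against -1.94 to 3.55 in MEFs (median 1.03), a ratio of 9.48-fold (95% counting interval 8.96 to 10.0) between the grafts. Slc34a1, the phosphate transporter of the proximal tubule, was at 12.54 in FS022 and 8.40 in FS023, against -1.79 to 2.49 in MEFs (median 0.0), a ratio of 17.8-fold (95% counting interval 15.3 to 20.8). Acsm2 was at 13.11 in FS022 and 8.56 in FS023, against -2.13 to 2.48 in MEFs (median 0.03). FS022 was highest, FS023 next and every MEF sample near 3 reads for these genes. Of 16 genes of the distal nephron and glomerulus 7 were higher in both grafts and 7 in FS022 over FS023. Umod, of the thick ascending limb, was at 9.10 in FS022 and 5.04 in FS023, against -1.94 to 3.27 in MEFs (median -0.85), and Slc12a3, of the distal tubule, at 9.18 in FS022 and 3.68 in FS023, against -2.52 to 2.81 in MEFs (median 1.19). The grafts lay on a host kidney, and its part in these values was not tested. Aqp8, a water channel, and Atp12a, a proton pump, were also among the 15 genes most in favour of FS022, with 1557 estimated reads in FS022 and 9 in FS023 and, for Atp12a, 592 and 0. Mup4, a major urinary protein, had 570 estimated reads in FS022 and 0 in FS023, and members of its family share reads.

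Regulators of endoderm and the urogenital tract followed the same side. Of 17 such genes 12 were higher in both grafts than in MEFs and 7 were higher in FS022 than in FS023. Shh, the signal of the urogenital sinus epithelium, was at 11.32 in FS022 and 6.92 in FS023, against -1.73 to 2.46 in MEFs (median -0.27). Foxa2 was at 7.21 in FS022 and 6.53 in FS023, against -1.38 to 3.53 in MEFs (median 1.78), and Isl1 at 11.20 in FS022 and 8.47 in FS023, against 2.23 to 5.75 in MEFs (median 4.49). These were above all MEF samples in both grafts. Tbx3 was at 11.23 in FS022 and 6.18 in FS023, against 7.97 to 9.30 in MEFs (median 8.52), above MEFs in FS022 and below them in FS023. Pax8, of the nephron, was at 8.16 in FS022 and 3.74 in FS023, against 2.97 to 4.61 in MEFs (median 4.45).

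Ribosomal protein genes, a group chosen after the values were seen because Rps16 and Rpl5 were among the 15 genes most in favour of FS022, set that library apart from the series. Of 78 such genes 20 were higher in FS022 than in FS023 by 3 log2 units or more and none the other way, where 2.98% of all genes were. For 14 genes FS022 was at least 1 log2 unit above all of the other 18 libraries, and for 6 of these by at least 3. Rpl5 was at 12.72 in FS022 and 5.18 in FS023, against 6.26 to 7.06 in MEFs (median 6.72), and at most 7.75 in the other 18 libraries. Rps16 was at 12.58 in FS022 and 4.91 in FS023, against 6.62 to 7.78 in MEFs (median 7.68), and at most 8.73 in them. The 58 other genes differed by a median of 0.895 between FS022 and FS023, with a range of -1.81 to 2.81. These genes have many processed copies in the genome, and reads shared with copies are counted uncertainly. The grafts held rat cells, reads were aligned to the mouse genome, and FS022 is the library of lowest depth. The part of these in the result was not tested.

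**Figure D4:**
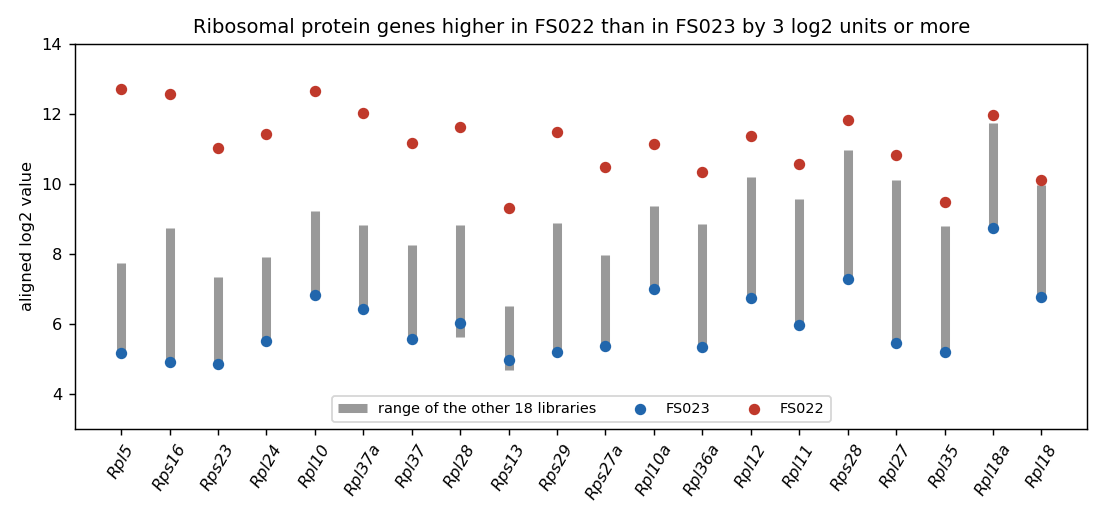
Aligned log2 values of the 20 ribosomal protein genes that were 3 log2 units or more higher in FS022 than in FS023, ordered by how far FS022 stands above the other 18 libraries. Grey bars span the other 18 libraries, blue points are FS023 and red points FS022. FS022 stands above every grey bar, at 9.31 to 12.7, and FS023 at 4.85 to 8.74 is at or near the foot of the bars.

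FS023 in turn held neural tissue genes. Of 22 neuronal genes 18 were higher in FS023 than in FS022 by 3 log2 units or more and none the other way, with list medians of 7.37 in FS022, 12.33 in FS023 and 1.85 to 2.68 in MEFs, and they took 0.788% of the reads in FS023 and 0.0506% in FS022. Slc17a7, the vesicular glutamate transporter of excitatory neurons (chr7:52419291-52431508, plus strand), was at 2.03 in FS022 and 12.55 in FS023, with 1 estimated read in FS022 and 3308 in FS023 and a MEF median of 3.41. Gad2, an enzyme of GABA synthesis (chr2:22477725-22549394, plus strand), was at 4.48 in FS022 and 13.20 in FS023, against 0.82 to 2.38 in MEFs (median 1.54), a ratio of 461-fold (95% counting interval 234 to 1068) in favour of FS023. Slc32a1, the vesicular transporter of GABA, was at 3.31 in FS022 and 11.30 in FS023, against -0.81 to 0.94 in MEFs (median -0.16). FS023 thus had transcripts of both kinds of neuron, and FS022 at most 8 reads of each. Syp, which encodes synaptophysin, was at 7.94 in FS022 and 13.89 in FS023, against 1.39 to 3.51 in MEFs (median 2.38), and Snap25, of the synaptic vesicle fusion machinery, at 9.32 in FS022 and 13.65 in FS023, against -2.43 to 2.33 in MEFs (median 0.25). For these 2 FS022 was also above every MEF sample, and 18 of 22 neuronal genes were higher in both grafts than in MEFs. Stmn2 and Tubb3 were within the MEF range in FS022, at 8.93 and 8.10, and at 13.67 and 13.40 in FS023. The receptor genes Grm5, for glutamate, and Gabrb2, for GABA, and Rph3a, a synaptic vesicle protein, were among the 15 most in favour of FS023.

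Glial genes were on the same side. Of 17 glial genes 12 were higher in FS023, 1 in FS022, and 14 were higher in both grafts than in MEFs. Gfap, the filament of astrocytes (chr11:102748650-102762226, minus strand), was at 12.97 in FS022 and 16.21 in FS023, against 0.96 to 3.81 in MEFs (median 2.07), a ratio of 9.41-fold (95% counting interval 9.07 to 9.76), and was second of all genes by reads in FS023. Slc1a2, the glutamate transporter of astrocytes, was at 8.07 in FS022 and 15.50 in FS023, against 3.17 to 4.92 in MEFs (median 3.94). Aqp4, their water channel, was at 11.36 in FS022 and 14.35 in FS023, against -0.03 to 3.48 in MEFs (median 1.91). FS022 was above MEFs for these astrocyte genes as well. Mag, a protein of myelin, was at 4.08 in FS022 and 11.41 in FS023, against -0.58 to 2.27 in MEFs (median -0.02), while Mobp, also of myelin, had 0 estimated reads in FS022 and 1451 in FS023. Of 16 neural progenitor genes 7 were higher in FS023 than in FS022. Fabp7, of radial glia, was at 8.44 in FS022 and 12.81 in FS023, against 2.98 to 5.36 in MEFs (median 4.90). Nes, which encodes nestin, did not set the grafts apart from MEFs by the rule, at 9.22 in FS022 and 10.79 in FS023, against 9.97 to 12.59 in MEFs (median 11.70). Of eye and pigment cell genes 1 of 13 was higher in both grafts, Rlbp1 at 4.90 in FS022 and 9.04 in FS023, against -2.07 to 1.66 in MEFs (median -0.38).

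FS023 also held the secretions of stomach and of mucosa. Of 6 stomach genes 5 were higher in FS023 than in FS022, with list medians of 3.21 in FS022, 11.12 in FS023 and 1.85 to 2.38 in MEFs. Pgc, the precursor of a stomach pepsin (chr17:47863791-47871432, plus strand), was at 1.97 in FS022 and 12.13 in FS023, against -2.71 to 2.77 in MEFs (median 0.52). Gkn1, gastrokine (chr6:87295647-87300917, minus strand), was at 0.55 in FS022 and 11.87 in FS023, against -1.92 to 2.65 in MEFs (median -0.04), at least 490-fold more in FS023 against a level of 3 reads. Muc6, the mucin of gastric glands, was at 0.62 in FS022 and 11.47 in FS023, against 1.92 to 3.13 in MEFs (median 2.45). FS022 and all MEF samples lay near or under 3 reads here. Cym, which encodes chymosin, and Pga5, a further pepsinogen, belonged to the 15 genes most in favour of FS023, with 3238 and 1569 reads in FS023 and 0 and 1 in FS022. Chi3l4, a chitinase-like protein, had 0 estimated reads in FS022 and 3222 in FS023. Of 11 mucosal secretion genes 9 were higher in both grafts than in MEFs and 6 were higher in FS023 than in FS022. Bpifa1 and Bpifb1, secreted by upper airway epithelium, were at 11.58 and 12.53 in FS023 and at -0.37 and 4.15 in FS022. Tff2, a trefoil peptide of stomach mucus, was at 5.20 in FS022 and 13.16 in FS023, against -1.41 to 2.12 in MEFs (median -0.20), and Muc5b, the airway mucin, at 6.50 in FS022 and 12.76 in FS023, against -0.86 to 1.95 in MEFs (median 0.92).

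Ciliated and cornified epithelium were on the same side. Of 10 genes of motile cilia 9 were higher in both grafts than in MEFs, and 5 were higher in FS023 than in FS022. Foxj1, the factor of ciliated cells, was at 7.85 in FS022 and 11.28 in FS023, against 2.32 to 3.29 in MEFs (median 2.80). Tekt1, of the axoneme, was at 5.33 in FS022 and 9.14 in FS023, against -1.34 to 0.33 in MEFs (median -0.11). Of 17 genes of cornified epithelium 8 were higher in FS023 and 6 were higher in both grafts than in MEFs. Krt13, of stratified mucosa (chr11:99978641-99982880, minus strand), was at 5.96 in FS022 and 12.70 in FS023, against 1.38 to 2.90 in MEFs (median 2.36). Sprr3, of the cornified envelope, was at -1.04 in FS022 and 9.96 in FS023, against -2.83 to 3.27 in MEFs (median 1.69). Krt1, of the epidermis, was at 3.71 in FS022 and 7.82 in FS023, against -0.73 to 1.28 in MEFs (median 0.70), and 1 of 15 hair follicle keratin genes was higher in both grafts. Intestinal genes were higher in both grafts for 9 of 16 and differed both ways, with Mep1a, a brush border protease, at 10.76 in FS022 and 6.77 in FS023, against -0.80 to 1.18 in MEFs (median 0.59), and Lyz1, the lysozyme of Paneth cells, at 5.29 in FS022 and 9.85 in FS023, against -1.87 to 2.25 in MEFs (median 1.04). Cdx2, the factor of intestine, was at 3.82 in FS022 and 4.31 in FS023, against -1.55 to 0.02 in MEFs (median -0.47).

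**Figure D5:**
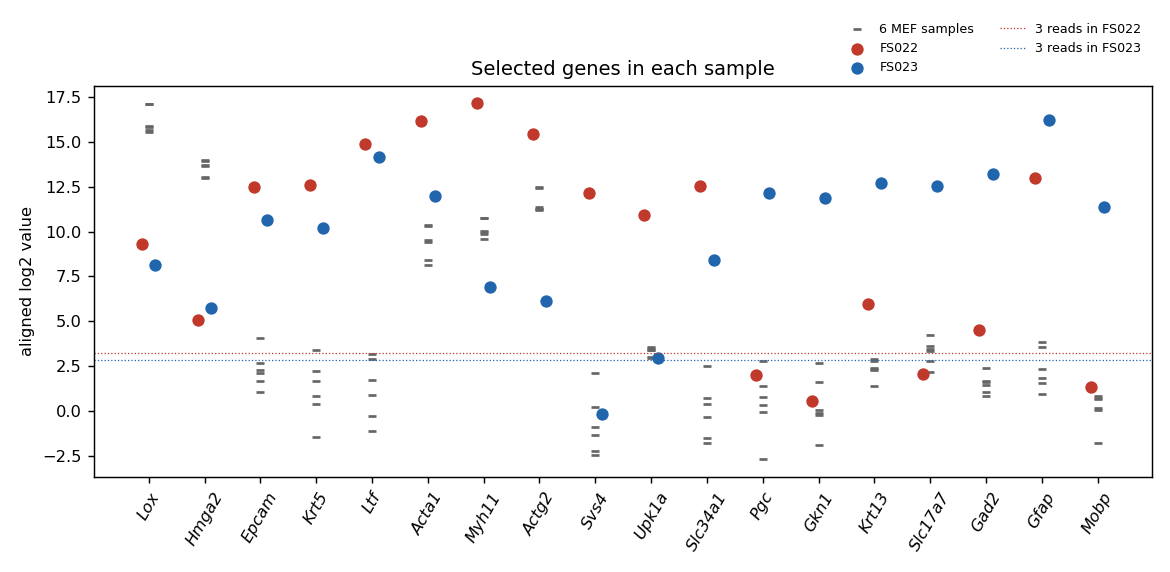
Aligned log2 values of 18 genes in each of the 8 samples. Grey bars are the 6 MEF samples, red points FS022, blue points FS023, and the dotted lines the level of 3 reads in each graft. Lox and Hmga2 lie below all MEF bars in both grafts and Epcam, Krt5, Ltf and Acta1 above them. Myh11 to Slc34a1 are high in FS022, and Pgc to Mobp are highest in FS023.

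Some imprinted genes and Xist also separated the grafts. Of 17 imprinted genes 7 were higher in FS023 than in FS022 and none the other way. Meg3, a maternally expressed non-coding RNA, was at 9.74 in FS022 and 14.34 in FS023, against 11.73 to 12.71 in MEFs (median 12.07). Peg10 was at 6.66 in FS022 and 12.75 in FS023, against 10.24 to 11.04 in MEFs (median 10.89), and Ndn, which encodes necdin of neurons, at 8.26 in FS022 and 13.43 in FS023, against 9.93 to 10.81 in MEFs (median 10.76). FS023 stood above every MEF sample and FS022 below every one for these genes. Xist, the RNA of the inactive X chromosome, was at 9.22 in FS022 and 13.32 in FS023, against 12.26 to 13.61 in MEFs (median 13.42), so that FS023 lay in the range of the mixed-sex MEFs and FS022 below it. The Y-linked gene Ddx3y was at 10.49 in FS022 and 8.24 in FS023, against 6.55 to 10.74 in MEFs (median 10.03), present in both grafts.

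Liver, lung and pancreas genes had a list median at the level of 3 reads in FS022. Of 12 liver and yolk sac genes 1 was higher in both grafts than in MEFs, Ttr, the thyroxine carrier, at 9.39 in FS022 and 8.17 in FS023, against -1.03 to 1.11 in MEFs (median -0.10), and 3 were higher in FS023 than in FS022, among them Apoa1 at 0.89 in FS022 and 8.76 in FS023, against -2.36 to 1.47 in MEFs (median 0.13). Of 7 lung genes 2 were higher in both, Sftpd, a collectin, at 9.56 in FS022 and 9.66 in FS023, against -0.66 to 2.16 in MEFs (median 0.18), and Sftpc, the surfactant protein of alveoli, at 3.46 in FS022 and 6.05 in FS023, against -2.41 to 2.15 in MEFs (median 0.54). Of 9 pancreas genes 1 was higher, Cela1, and Cpa1 and Pdx1 were near 3 reads. Cartilage held 3 higher and 5 lower genes of 15, and bone 2 and 1 of 12. Of 12 adipocyte genes 2 were higher, and Adipoq, which encodes adiponectin, was at 5.73 in FS022 and 6.37 in FS023, against -2.54 to 5.17 in MEFs (median 0.40). Of 11 neutrophil and mast cell genes 2 were higher in FS023 than in FS022, S100a8 at 4.06 in FS022 and 8.69 in FS023, against -0.95 to 1.64 in MEFs (median 1.47) and S100a9 at 5.58 in FS022 and 10.05 in FS023, against -1.12 to 1.52 in MEFs (median -0.40). Of 9 genes of the early germ layers 2 were higher in both grafts, including Sox17 of endoderm and vessels at 7.94 in FS022 and 7.45 in FS023, against -2.42 to 1.01 in MEFs (median 0.54), while T and Mixl1 of the primitive streak had 0 and 1 reads in FS022 and 10 and 0 in FS023. Choroid plexus genes were higher in both for 3 of 5, with Cldn2 at 9.54 in FS022 and 10.27 in FS023, against -1.42 to 1.48 in MEFs (median 1.33).

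Signalling lists held genes called in both directions, where 19% of all genes were higher and 5.46% lower. Of 15 Wnt pathway genes 4 were higher in both grafts and 2 were lower. The ligand Wnt4 was at 10.27 in FS022 and 8.96 in FS023, against 6.33 to 7.07 in MEFs (median 6.92), and the ligand Wnt5a at 9.45 in FS022 and 9.29 in FS023, against 10.51 to 11.62 in MEFs (median 11.14). Sfrp2, a secreted Wnt inhibitor, was at 11.82 in FS022 and 7.77 in FS023, against 7.52 to 13.53 in MEFs (median 8.55), higher in FS022 than in FS023. Of 10 BMP pathway genes 2 were higher and 1 was lower, the inhibitor Grem1, named after its value was seen. The ligand Bmp2 was at 8.49 in FS022 and 6.56 in FS023, against 4.71 to 5.16 in MEFs (median 5.0), and the ligand Bmp4 at 8.77 in FS022 and 7.70 in FS023, against 9.52 to 11.29 in MEFs (median 10.80). The target genes Id1, Id2 and Id3 did not meet the limit.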

How the data were processed

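RNA was sequenced from 6 MEF samples and 2 iEpt only grafts with a TruSeq RNA kit that does not mark strand. The log2 values used are those the authors deposited, normalized read counts per gene, in a table of 17 samples and a table of these 2 grafts. The submitters' processing notes name bcl2fastq 1.8.4, TopHat, Cufflinks, DESeq and mm9, and other versions were not given in the sources used here. The high values of each sample, from 11.5 to 15, were whole reads times a constant once an offset of 1.611 common to all samples was allowed for, with 100% of them within 0.05 read, and estimated reads, depth and the level of 3 reads come from this.

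Tables were joined on gene name, with 23259 of 23284 names shared and 25 turned into dates left out. Each sample was shifted by its median difference from the gene mean over 10188 genes above 5 in all 19 samples, and values under 3 reads were set to that level. Genes were described where the linear mean over the samples compared reached 10, 1 log2 unit without overlap being the limit against MEFs and 3 log2 units between grafts. Named genes are the 12 furthest in each direction against MEFs, the 15 furthest between grafts with at least 50 reads, of each list the first 2 members and the 3 with the largest value or difference, and the reprogramming factors, Foxa1 and Nanog, of which some are not reported here. The members and the 53 lists were chosen with earlier results of these data known. The scaling, the filter, the limits, the floor and each sample left out were varied. Counting intervals are exact at 95%. The code used scipy 1.17.1, numpy 2.4.6 and pandas 2.3.3 in Python 3.11.15, with matplotlib 3.10.9 for the plots, and was tested on simulated data. Positions are from GENCODE M1 on mm9, promoters from RefSeq.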

Additional observations from a re-analysis of the deposited data

Results flagged for a closer look

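In the MEF samples, 14 of 101 named values or list medians had 1 extreme sample apart from the other 5 by Dixon's criterion. The usual chance rate of about 1 in 20 holds for independent samples without a floor. Here the samples fell into pairs and many values were set to the level of 3 reads, so the count cannot be read against that rate. In FS020 the highest value stood apart for Kap (3.55), Aqp4 (3.48), Reg3g (2.67), Pcp4 (4.45), Expi (2.79), Beta-s (2.43), P2rx1 (2.87), Cym (2.43), Pgc (2.77) and Gkn1 (2.65), with values under 3 reads set to that level. In FS015 it did for Csn3 (2.78) and for the median of epithelial adhesion genes (3.55). FS019 was lowest for Aqp8 (1.85), which is its level of 3 reads, and FS016 for Rps16 (6.63). Most of these genes are near the level of 3 reads in every MEF sample and all lie below FS022, FS023 or both.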

How the results depend on the processing

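The counts against MEFs depended on the scale and on the gap required. With the 8 samples quantile-normalized 1205 genes were higher and 2198 lower, which turns the balance, and 19 of 53 list medians changed sign. Some of these lists are near the level of 3 reads in MEFs, such as erythroid, lymphoid, liver and pluripotency. The median of the reprogramming factors, which changed too, is the difference of Pou5f1, a gene at or about that level in MEFs and both grafts. Cartilage, Wnt pathway and sex-linked genes, whose list medians in MEFs stand above that level, also changed. The medians of fibroblast matrix (-4.15 and -4.06), cell cycle (-2.79 and -3.44), epithelial adhesion (7.12 and 6.10) and skeletal muscle (6.16 and 4.98) kept theirs. A linear mean of at least 50 left 2099 higher genes. Without a gap the counts were 6306 and 3053, and with a gap of 2 log2 units 1847 and 276. Between the grafts a limit of 2 log2 units gave 1153 genes for FS022 and 2424 for FS023, and a limit of 4 gave 247 and 830.

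Leaving out a graft gave 3575 to 4735 higher and 1545 to 1624 lower genes, since 1 graft then decides, and leaving out a MEF sample 3293 to 3348 and 866 to 877. Leaving out FS015 to FS018 gave 3963 and 1033. Chosen after seeing the data were averaging the MEF pairs (3738 and 911) and requiring more than 3 reads in each graft (2986 higher). No paired analysis was possible because the result comes from no test and the replicate numbers name unrelated samples. With 2 grafts of lower depth than the MEFs, absence of a gene cannot be told from under 3 reads, and no value here has a replicate error within a graft.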
